A study of Mus musculus with 15 samples.

Results

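The potassium channel genes of the mouse left ventricle were taken as all genes of the deposited count table whose symbol follows the Kcn naming pattern and that reached 0.5 CPM (read counts scaled to a common library total) in 5 or more of 15 libraries. Of 47069 genes in the table, 93 carried such a symbol, and 52 of them reached the minimum. The 52 comprised 9 inward rectifier pores, 19 voltage-gated pores, 3 voltage-gated modifier pores, 5 two-pore-domain pores, 7 calcium- or sodium-activated pores and 9 auxiliary subunits. Each of 3 groups had 5 libraries from C57BL/6 left ventricle. The rHCI hearts had a myocardial infarct, received rHCI (a recombinant human collagen type I hydrogel) into the heart muscle at day 7 and were collected 2 days after the injection. PBS hearts had the same infarct and schedule with buffered saline as the injection. Sham hearts had a sham operation and no treatment, and were taken at an age-matched point of 10 weeks, so against sham hearts the infarct and the injection cannot be told apart. The labels name no sex, no transgene and no age for the infarcted mice. Left ventricular tissue was ground before RNA isolation, so each value is an average over all cells of the sample.

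Potassium channels let potassium leave or enter the cell and so set the resting potential of heart muscle cells and end each action potential. In mouse ventricle, repolarization is carried largely by transient outward and slowly inactivating voltage-gated currents, the resting potential by inward rectifiers, and background leak by two-pore-domain channels. A functional channel needs several pore subunits, and auxiliary subunits change its gating or its delivery to the membrane. Immune cells, fibroblasts and smooth muscle carry other members of the family, including calcium-activated channels.

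Deposited counts per library summed to between 32978702 and 103356830. A number in the library descriptions was shared by 12 libraries, 4 of each group, and rHCI 1, PBS 6 and Sham 19 carried others. Summed CPM of 15 cardiomyocyte markers ranged over 58693 to 87498 in rHCI hearts, 56011 to 79099 in PBS hearts and 107031 to 118091 in sham hearts, and 14 of the 15 fell in each infarcted group. Summed fibroblast markers ranged over 8081 to 13815 CPM in rHCI, 9084 to 13433 in PBS and 934 to 1137 in sham hearts, with 9 of 9 higher. Summed macrophage and monocyte markers ranged over 706 to 912 CPM in rHCI, 716 to 987 in PBS and 186 to 226 in sham hearts, with 11 of 11 higher. In bulk tissue, fewer cells of a type and less RNA per cell cannot be told apart. The summed lung and liver markers reached 66.3 CPM in PBS 6, most of it Sftpc at 44.6 CPM, against at most 0.407 CPM in rHCI hearts and 0.553 CPM in sham hearts. With PBS 6 left out, 19 channel genes passed as higher and 19 as lower than sham, against 19 and 20 with it. Among skeletal muscle markers, Myh1 reached 0.222 CPM in rHCI, 9.32 in PBS and 0.0941 in sham hearts. Tnnt3 reached 1.78 CPM in rHCI, 7.32 in PBS and 0.659 in sham hearts. The part of skeletal muscle in the channel levels was not tested. Mitochondrially encoded genes took 9.77 to 14.5% of counts in rHCI, 10.1 to 12.5% in PBS and 15.3 to 17.2% in sham hearts. The study text calls the libraries of a group biological replicates without naming animals, and p-values measure the spread between these libraries.

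Per kilobase of exon, 3 genes stood above all other channel genes in every group (a level, CPM divided by exon length, mean ± SD, n = 5 per group). Kcnk3, which forms an acid-sensitive leak channel, was at 71.3 ± 11.6 in rHCI, 63.7 ± 10.4 in PBS and 118 ± 5.35 in sham hearts. Kcnip2, the calcium-binding partner of the transient outward pores, was at 42.5 ± 9.71 in rHCI, 39.2 ± 5.38 in PBS and 81.6 ± 7.13 in sham hearts. Kcng2, a silent pore subunit that modifies voltage-gated channels, was at 42.9 ± 4.48 in rHCI, 39.8 ± 4.91 in PBS and 59.3 ± 3.52 in sham hearts. In sham hearts Kcnip2 stood above Kcng2, and in both infarcted groups they differed by less than 1 SD.

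Below these in sham hearts came Kcnj11 at 26.5 ± 0.952, Kcnj5 at 23.9 ± 2.24, Kcnj3 at 20.9 ± 1.26 and Kcnh2 at 20.8 ± 2.52 CPM per kilobase. Kcnj5, Kcnj3 and Kcnh2 as neighbours in this order lay within the sum of their SDs of each other. Then followed Kcna5, Kcnj12 and Kcnq1 at 15.9 ± 1.64, 15.8 ± 1.43 and 14.1 ± 1.30, of which Kcna5 and Kcnj12 differed by less than 1 SD. The order changed most at Kcnj15, an inward rectifier best known from epithelia, which ranked 12th of 52 in rHCI and 10th in PBS hearts but 39th in sham hearts. The level of Kcnj15 was 6.60 ± 1.79 CPM per kilobase in rHCI, 8.81 ± 2.12 in PBS and 0.225 ± 0.0608 in sham hearts. Kcna5 held rank 13 in rHCI and 14 in PBS hearts, against 8 in sham hearts. Summed over the 52 genes, the level was 306 ± 47.4 in rHCI, 284 ± 32.3 in PBS and 463 ± 9.52 in sham hearts.

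**Figure D1:**
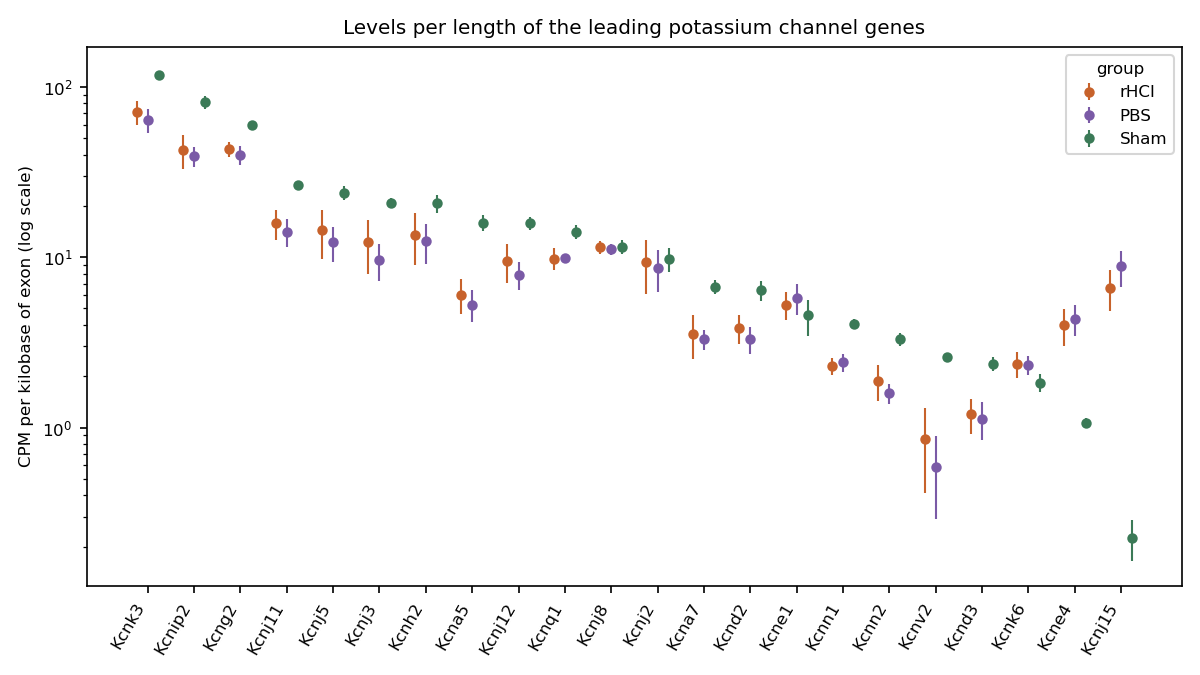
Points are group means and bars are SD over 5 libraries of CPM per kilobase of exon, on a log axis, for the 20 highest potassium channel genes of sham hearts among those reported and those that entered the 20 highest of PBS hearts. Genes run from the highest to the lowest sham level, and Kcnk3, Kcnip2 and Kcng2 lead in every group, while Kcnj15 and Kcne4 lie far above their sham points in both infarcted groups.

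The comparisons with sham asked which channel genes differ between an infarcted and a sham-operated ventricle. Kcnd2, Kcnd3 and Kcnip2 of the transient outward current, Kcna5, the modifier subunit gene Kcnv2 and the leak channel gene Kcnk3 were lower in infarcted hearts, while Kcnj2, a resting current pore, did not pass. Kcnj15, the calcium-activated channel genes Kcnma1 and Kcnn4, Kcnd1 of the transient outward family and the auxiliary subunit gene Kcne4 were higher. Of these, Kcnma1, Kcnn4 and Kcnd1 met the minimum only with the help of infarcted libraries, as set out below. In PBS hearts, 19 of the 52 genes were higher and 20 lower than in the sham group at an adjusted p under 0.05 (edgeR's quasi-likelihood test, Benjamini-Hochberg over 16207 genes tested), and 13 did not pass. The share that passed, 75%, was near the 71.4% of all genes tested, of which 36.5% were higher and 34.9% lower. In rHCI hearts the counts against sham hearts were again 19 higher, 20 lower and 13 not passed, beside 63.9% of 16076 genes tested (34.1% higher, 29.7% lower). The same 39 genes passed in both comparisons, each in one direction, and both comparisons use the same 5 sham libraries. The median log2 fold change of the 52 was 0.057 in rHCI and -0.016 in PBS hearts, against 0.0017 in rHCI and -0.0086 in PBS hearts over all genes tested. Library values of the 2 groups did not overlap for 13 higher and 16 lower genes in rHCI hearts, where 49.4% of all genes did not overlap (27.2% higher, 22.2% lower), and for 15 higher and 19 lower genes in PBS hearts, where 59.0% did not (31.6% higher, 27.4% lower). In the 4 libraries per group that share a number, 16 channel genes were higher and 18 lower in rHCI hearts, and 19 higher and 19 lower in PBS hearts, both against sham. Scaled by library total instead of TMM (trimmed mean of M-values) factors, the median of all genes moved to 0.22 in rHCI and 0.27 in PBS hearts, and the share of higher genes among those that passed was 79.0% in rHCI and 77.4% in PBS hearts, against 53.4% in rHCI and 51.2% in PBS hearts with TMM. Channel genes then split into 24 higher and 16 lower in rHCI, and 25 higher and 19 lower in PBS hearts.

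Most abundant channel genes were lower, and abundant genes in general were more often lower than higher. Of 19 genes averaging at least 10 CPM over the 15 libraries, a limit chosen after the values were seen, 15 were lower and 1 was higher in each infarcted group. Of all genes at that level, 40.5% were lower and 29.2% higher in rHCI, and 46.0% lower and 31.1% higher in PBS hearts. The summed cardiomyocyte markers differed from sham by -0.62 in rHCI and -0.78 in PBS hearts on the log2 scale, and their part in the falls was not tested. Of the other 33 genes, 18 were higher and 5 lower in each infarcted group, where all genes under that level were 40.5% higher and 15.7% lower in rHCI and 43.5% higher and 20.6% lower in PBS hearts. Kcne1l, Kcne3, Kcnj10, Kcna3, Kcnc2, Kcnh1 and Kcnq3 reached the 0.5 CPM minimum in infarcted hearts and in no sham library. These 7 entered through the infarcted groups alone, so a rise was close to fixed by the choice of members. Their differences are given below as values only. Of all genes that met the rule in the same way, 93.3% passed as higher in rHCI and 95.2% in PBS hearts. Among the other genes that passed as higher, Kcnma1 was at the minimum in 1 sham library. Kcnn4, Kcnk13, Kcnd1 and Kcnj14 were so in 3 each, and all of these needed infarcted libraries to meet the rule. The choice of members thus favoured a rise, and their adjusted p and any lack of overlap are not independent support for it. Of the 37 genes at the minimum in every sham library, 7 were higher and 20 lower in each infarcted group, beside 31.7% higher and 34.8% lower of all such genes in rHCI and 33.7% higher and 40.4% lower in PBS hearts. Kcne3, Kcnj10 and Kcng4 lay just inside the minimum with 5 libraries each, and Kcnmb4, with 4 libraries, was the nearest gene outside it. The remaining 41 genes of the naming pattern did not meet the rule, 4 of them with no read.

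**Figure D2:**
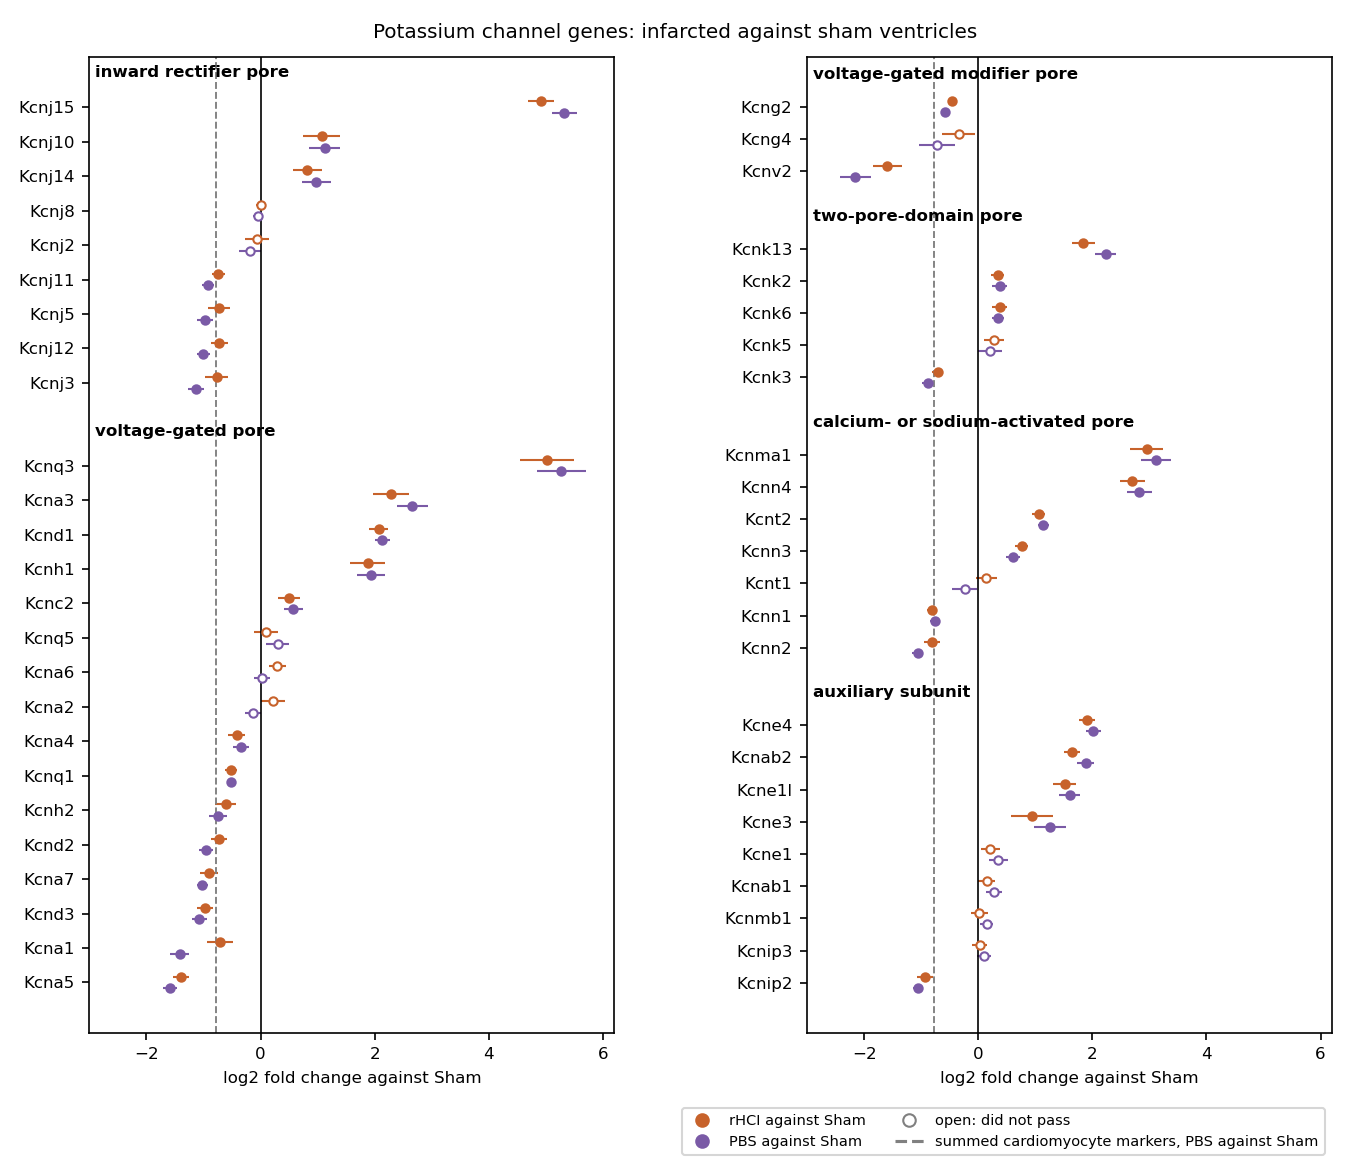
Log2 fold change against sham (x axis) of the potassium channel genes grouped by role, with rHCI hearts as the upper and PBS hearts as the lower point of each row, bars of 1 SE, and open points where the adjusted p did not pass. The dashed line marks the change of the summed cardiomyocyte markers in PBS hearts, -0.78, and Kcnv2, Kcna5 and Kcna1 lie furthest to its left in PBS hearts while Kcnj2 and Kcnj8 lie near 0.

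Among inward rectifiers, 3 genes passed as higher, 4 fell and 2 did not pass in each infarcted group. Of all genes tested, 34.1% were higher and 29.7% lower in rHCI, and 36.5% higher and 34.9% lower in PBS hearts. No role class was tested against these shares. Of the 3 higher genes, Kcnj10 entered through the infarcted groups alone and Kcnj14 needed infarcted libraries to meet the rule. Kcnj15 (ENSMUSG00000062609; GRCm38 chromosome 16, 95257558 to 95300260) had the largest rise of any channel gene in PBS hearts and stood second to the fitted value of Kcnq3 in rHCI hearts. Throughout, library values are given in the order rHCI 1, 3, 7, 11 and 13, PBS 2, 6, 9, 12 and 14, and Sham 16, 17, 18, 19 and 20. Kcnj15 had 37.3, 59.3, 45.2, 36.7 and 29.7 CPM in rHCI hearts, 55.4, 54.1, 65.8, 68.4 and 34.5 CPM in PBS hearts and 0.847, 1.43, 1.85, 1.67 and 1.30 CPM in sham hearts. Every infarcted heart stood far above every sham heart, and the infarcted groups overlapped each other. The log2 fold change of Kcnj15 was 4.91 ± 0.23 in rHCI hearts (SE, adjusted p = 1.41e-08) and 5.32 ± 0.22 in PBS hearts (adjusted p = 5.88e-10). A gene on the opposite strand, Gm49643, shares 333 exon bases with Kcnj15, and no source used here gives the strand setting of the counter.

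The genes of the resting current, Kcnj2 and Kcnj12, differed in whether they passed against sham hearts. Their ratio, given below, passed in rHCI hearts only and missed the threshold with 1 library left out. Kcnj2, a main pore of the cardiac inward rectifier current, did not pass, with log2 fold changes of -0.060 ± 0.21 in rHCI hearts (SE, adjusted p = 0.818) and -0.19 ± 0.19 in PBS hearts (adjusted p = 0.388). Kcnj2 had 49.4, 29.0, 39.1, 63.9 and 72.4 CPM in rHCI hearts, 51.9, 54.4, 47.8, 24.4 and 55.7 CPM in PBS hearts and 54.5, 52.7, 62.3, 57.5 and 39.0 CPM in sham hearts. The groups overlapped widely, and PBS 12 and rHCI 3 were the lowest libraries of their groups. Kcnj12 had 24.9, 17.6, 23.6, 29.5 and 35.5 CPM in rHCI hearts, 23.9, 22.7, 19.6, 16.04 and 26.3 CPM in PBS hearts and 41.0, 41.5, 41.0, 50.2 and 43.4 CPM in sham hearts. All 10 infarcted hearts lay below all sham hearts for this second pore of the same current, with log2 fold changes of -0.72 ± 0.15 in rHCI hearts (SE, adjusted p = 9.91e-04) and -1.005 ± 0.11 in PBS hearts (adjusted p = 3.57e-06). Scaled by library total alone, Kcnj2 changed sign to 0.15 in rHCI and 0.081 in PBS hearts and still did not pass.

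Both pores of the ATP-sensitive channel were abundant. Kcnj11, the pore of heart muscle cells, fell, with log2 fold changes of -0.74 ± 0.11 in rHCI hearts (SE, adjusted p = 1.23e-04) and -0.92 ± 0.10 in PBS hearts (adjusted p = 4.15e-06). Kcnj11 had 55.7, 41.2, 57.4, 63.4 and 72.2 CPM in rHCI hearts, 50.8, 56.9, 50.3, 37.7 and 63.5 CPM in PBS hearts and 96.9, 92.6, 97.3, 102 and 99.0 CPM in sham hearts. No infarcted heart reached the lowest sham heart. Kcnj8, the pore known mainly from vascular muscle and pericytes, had 29.1 ± 2.67 CPM in rHCI, 28.3 ± 2.13 CPM in PBS and 29.3 ± 2.68 CPM in sham hearts (SD, n = 5 each) and did not pass (adjusted p = 0.997 in rHCI and 0.521 in PBS hearts). The 95% intervals of its log2 fold change were -0.17 to 0.17 in rHCI and -0.21 to 0.10 in PBS hearts. With library-total scaling Kcnj8 passed as higher in both, at 0.22 in each infarcted group, so its direction rests on the scaling. Summed smooth muscle and pericyte markers ranged over 3272 to 3571 CPM in rHCI, 3240 to 3593 in PBS and 3789 to 4146 in sham hearts. Of these 12 markers, 6 passed as higher and 3 as lower in rHCI, and 6 as higher and 4 as lower in PBS hearts, and Des, which muscle cells also express, made up 1819 CPM in rHCI, 1801 in PBS and 2170.5 in sham hearts. Abcc9, also one of the 12 and given below as a partner gene, made up 346 CPM in rHCI, 303 in PBS and 652 in sham hearts. The part of smooth muscle cells and pericytes in the level of Kcnj8 was not tested.

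Kcnj3 and Kcnj5 form the channel opened by acetylcholine, which is best known from atria and pacemaker tissue. Kcnj3 had 78.6, 37.5, 42.9, 70.8 and 88.3 CPM in rHCI hearts, 56.4, 49.2, 47.0, 31.9 and 64.8 CPM in PBS hearts and 114, 117, 107, 101 and 106 CPM in sham hearts. Kcnj5 had 73.4, 37.2, 54.7, 78.8 and 92.9 CPM in rHCI hearts, 62.8, 64.8, 55.7, 35.1 and 68.2 CPM in PBS hearts and 120.2, 109, 104, 126 and 101 CPM in sham hearts. Both fell without overlap with sham hearts. Log2 fold changes of Kcnj3 were -0.77 ± 0.20 in rHCI hearts (SE, adjusted p = 0.00484) and -1.13 ± 0.14 in PBS hearts (adjusted p = 8.83e-06). Kcnj5 had log2 fold changes of -0.73 ± 0.19 in rHCI hearts (SE, adjusted p = 0.00520) and -0.97 ± 0.14 in PBS hearts (adjusted p = 4.47e-05). Most atrial markers moved the other way, with 4 of 5 tested markers higher in each infarcted group. Stard10 was lower in PBS hearts, at a log2 fold change of -0.64. Summed levels were 151 to 528 CPM in rHCI, 176 to 309 in PBS and 35.0 to 73.6 in sham hearts. Dkk3 alone averaged 107 CPM in rHCI, 126 in PBS and 11.3 in sham hearts. Myl4 averaged 74.8 CPM in rHCI, 46.8 in PBS and 11.1 in sham hearts. In the same order, Myl7 averaged 59.2, 34.5 and 8.88 CPM, and Sln 15.1, 7.82 and 1.55 CPM. Bmp10, an atrial marker, was at 0 in 2 libraries of each group, and the part of atrial tissue in these levels was not tested. Of the low-level inward rectifiers, Kcnj14 passed as higher, with log2 fold changes of 0.81 in rHCI and 0.98 in PBS hearts. Kcnj14 was a member only with the help of infarcted libraries, and each infarcted group overlapped the sham libraries. Its lowest infarcted values, 0.923 CPM in rHCI 13 and 0.905 CPM in PBS 2, lay below the 0.928 CPM of Sham 16. The glial channel gene Kcnj10 (log2 fold change 1.07 in rHCI and 1.12 in PBS hearts) entered through the infarcted groups alone. Levels of Kcnj10 were 0.258 to 0.701 CPM in rHCI, 0.423 to 0.708 CPM in PBS and 0.146 to 0.430 CPM in sham hearts, so its values rest on few reads.

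Of the 19 voltage-gated pores, 5 passed as higher, 10 fell and 4 did not pass in each infarcted group, beside the all-gene shares above. Of the 5, Kcna3, Kcnc2, Kcnh1 and Kcnq3 entered through the infarcted groups alone, which leaves Kcnd1. Kcnd1 was itself at the minimum in only 3 sham libraries. The fast transient outward current, which shapes the early repolarization of mouse ventricle, is built from Kcnd2 and Kcnd3 pores with Kcnip2. Kcnd2 had 22.2, 14.2, 17.6, 21.0 and 23.8 CPM in rHCI hearts, 16.5, 19.9, 16.1, 12.6 and 19.8 CPM in PBS hearts and 34.4, 37.0, 32.2, 25.9 and 35.1 CPM in sham hearts. Kcnd3 had 12.1, 7.94, 9.41, 13.9 and 13.97 CPM in rHCI hearts, 9.38, 10.4, 10.6, 8.22 and 15.4 CPM in PBS hearts and 20.2, 24.8, 24.6, 23.3 and 20.5 CPM in sham hearts. Kcnip2 had 134, 110.2, 128, 175 and 191 CPM in rHCI hearts, 119.9, 149, 137, 115 and 159 CPM in PBS hearts and 256, 289, 286, 267 and 321 CPM in sham hearts. For each of the 3 genes, all infarcted hearts lay below all sham hearts. Log2 fold changes of Kcnd2 were -0.73 ± 0.13 in rHCI hearts (SE, adjusted p = 4.42e-04) and -0.96 ± 0.12 in PBS hearts (adjusted p = 1.13e-05). For Kcnd3 they were -0.98 ± 0.14 in rHCI hearts (SE, adjusted p = 9.05e-05) and -1.07 ± 0.14 in PBS hearts (adjusted p = 1.14e-05). Kcnip2, the only auxiliary subunit that fell, had -0.93 ± 0.13 in rHCI hearts (SE, adjusted p = 7.30e-05) and -1.06 ± 0.090 in PBS hearts (adjusted p = 2.83e-07). Kcna4, the pore of the slow transient outward current, fell less, with -0.42 ± 0.15 in rHCI hearts (SE, adjusted p = 0.0303) and -0.35 ± 0.14 in PBS hearts (adjusted p = 0.0394). Its infarcted libraries overlapped the sham libraries.

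The sequences upstream of 2 genes that fell and 2 that rose are shown because these are leading changes of the family. Each is the 250 bases before the RefSeq transcription start (GRCm38.p6), written 5′ to 3′ along the gene, and capitals mark the E-box letters CACGTG where they occur.
Kcnip2, chr19:45816064-45816313, minus strand: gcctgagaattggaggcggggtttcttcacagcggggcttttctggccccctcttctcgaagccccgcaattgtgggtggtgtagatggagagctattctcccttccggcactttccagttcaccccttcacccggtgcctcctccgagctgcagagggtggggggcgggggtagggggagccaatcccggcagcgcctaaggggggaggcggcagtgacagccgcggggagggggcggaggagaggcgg
Kcna5, chr6:126535556-126535805, minus strand: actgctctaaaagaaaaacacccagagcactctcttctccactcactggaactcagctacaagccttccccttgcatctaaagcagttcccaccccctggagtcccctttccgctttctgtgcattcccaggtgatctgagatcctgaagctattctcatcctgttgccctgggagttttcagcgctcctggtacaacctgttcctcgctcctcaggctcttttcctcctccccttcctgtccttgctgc
Kcnj15, chr16:95257308-95257557, plus strand: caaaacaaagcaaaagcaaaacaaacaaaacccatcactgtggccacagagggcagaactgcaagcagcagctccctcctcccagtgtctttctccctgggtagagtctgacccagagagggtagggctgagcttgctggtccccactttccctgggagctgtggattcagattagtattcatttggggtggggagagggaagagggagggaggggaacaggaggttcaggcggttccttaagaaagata
Kcnn4, chr7:24370013-24370262, plus strand: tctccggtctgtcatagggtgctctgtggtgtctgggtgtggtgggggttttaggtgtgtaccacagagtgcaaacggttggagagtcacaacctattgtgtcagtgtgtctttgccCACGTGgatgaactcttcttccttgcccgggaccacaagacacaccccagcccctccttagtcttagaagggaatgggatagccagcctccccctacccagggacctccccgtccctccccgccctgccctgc
GC content was 66.8% upstream of Kcnip2, 53.2% upstream of Kcna5 and of Kcnj15, and 58.8% upstream of Kcnn4. Windows were at hand for 36 of the 52 genes, 51 windows in all. Each was searched on both strands for the AP-1 motif TGANTCA, the TATA box written TATAAA, the E-box CACGTG, the GATA factor motif AGATAA and, for the ETS family, GAGGAAGT, and none of these letters overlap in the windows printed, where CACGTG at position -133 upstream of Kcnn4 was the sole match. TGANTCA stood in 2 of 24 windows of genes that passed as higher (Kcne3 and Kcnk2) and 0 of 12 windows of genes that fell, against 6.75% of 32851 windows of all genes. CACGTG stood in 2 of 24 windows of genes that passed as higher (Kcne4 and Kcnn4), 0 of 12 of genes that fell and 3 of 15 of genes that did not pass, against 6.02% of all windows. TATAAA, found in 12.4% of all windows, stood in none of the 51.

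Kcna5 carries a fast-activating, slowly inactivating current and had the largest fall among pores that conduct on their own. Kcna5 had 13.3, 19.3, 18.3, 22.4 and 12.97 CPM in rHCI hearts, 11.7, 13.9, 13.6, 20.1 and 16.1 CPM in PBS hearts and 52.2, 40.9, 48.4, 45.0 and 41.8 CPM in sham hearts. Every infarcted heart lay well below every sham heart. The log2 fold change of Kcna5 (ENSMUSG00000045534; GRCm38 chromosome 6, 126532551 to 126535412) was -1.39 ± 0.14 in rHCI hearts (SE, adjusted p = 4.34e-06) and -1.59 ± 0.12 in PBS hearts (adjusted p = 1.23e-07).

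Kcna1, Kcna5 and Kcna6 are neighbours on chromosome 6, with 105 kb between Kcna5 and Kcna1 and 61.9 kb between Kcna1 and Kcna6. Kcna1, best known from nerve fibres, fell (-0.71 ± 0.22 in rHCI and -1.42 ± 0.17 in PBS hearts), while Kcna6 did not pass (0.29 ± 0.15 in rHCI and 0.021 ± 0.14 in PBS hearts, adjusted p = 0.103 in rHCI and 0.896 in PBS hearts). Kcna1 had 2.35, 1.499, 1.74, 1.66 and 0.830 CPM in rHCI hearts, 0.877, 1.13, 1.18, 0.708 and 1.06 CPM in PBS hearts and 3.16, 3.15, 2.11, 2.32 and 2.51 CPM in sham hearts. PBS hearts lay below all sham hearts, and rHCI 1 overlapped them. On chromosome 3, Kcna3 and Kcna2 lie 63.1 kb apart. Kcna3, a channel of lymphocytes and macrophages, entered through the infarcted groups alone. In all it had 148 reads in rHCI, 239 in PBS and 33 in sham hearts. Its log2 fold changes were 2.28 in rHCI and 2.66 in PBS hearts. T and NK cell markers summed to 3.49 to 4.87 CPM in rHCI, 3.65 to 5.37 in PBS and 1.65 to 2.31 in sham hearts, with 7 of 7 higher, and their part in the level of Kcna3 was not tested. Kcna2 did not pass (0.22 ± 0.21 in rHCI and -0.13 ± 0.14 in PBS hearts). Kcna7, a pore of heart and skeletal muscle, fell (-0.90 ± 0.16 in rHCI and -1.02 ± 0.096 in PBS hearts).

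Kcnq1 and Kcnh2 encode the pores of the slow and rapid delayed rectifiers, which end the action potential in large mammals and carry little current in adult mouse ventricle. Kcnq1 had 38.9, 34.6, 34.6, 46.2 and 46.4 CPM in rHCI hearts, 42.9, 41.8, 40.1, 36.9 and 40.9 CPM in PBS hearts and 64.7, 62.1, 55.8, 54.2 and 52.2 CPM in sham hearts. Kcnh2 had 65.3, 43.4, 50.6, 68.9 and 100.03 CPM in rHCI hearts, 68.0, 63.0, 48.0, 40.7 and 80.2 CPM in PBS hearts and 106, 114, 83.2, 105 and 93.8 CPM in sham hearts. Kcnq1 did not overlap between infarcted and sham hearts, and for Kcnh2 the PBS hearts did not while rHCI 13 lay within the sham range. Log2 fold changes of Kcnq1 were -0.52 ± 0.098 in rHCI hearts (SE, adjusted p = 5.64e-04) and -0.52 ± 0.066 in PBS hearts (adjusted p = 1.10e-05), and 121 of its exon bases are shared with the antisense transcript Kcnq1ot1. For Kcnh2 they were -0.61 ± 0.18 in rHCI hearts (SE, adjusted p = 0.0117) and -0.75 ± 0.16 in PBS hearts (adjusted p = 7.25e-04), and with library-total scaling the rHCI fall was -0.40 and no longer passed (adjusted p = 0.0541). Kcne1, the partner of Kcnq1, did not pass, with 0.21 ± 0.16 in rHCI hearts (SE, adjusted p = 0.275) and 0.35 ± 0.17 in PBS hearts (adjusted p = 0.0718). Its value in PBS hearts passed with library-total scaling (0.63), without PBS 2 (0.41) and without Sham 16 (0.47), and in rHCI hearts with library-total scaling (0.43).

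The voltage-gated pores with higher values in infarcted hearts were at low level. Kcnq3, known from the neuronal M current, was nearly missing from sham hearts, with 4 reads over 5 libraries and 0 in Sham 17 and Sham 18, against 133 reads in rHCI and 202 in PBS hearts. Its fitted log2 fold changes of 5.02 in rHCI and 5.27 in PBS hearts depend on the prior count that edgeR adds. Kcnd1 had 2.35, 3.24, 2.30, 2.30 and 2.64 CPM in rHCI hearts, 2.66, 2.65, 2.81, 2.77 and 2.62 CPM in PBS hearts and 0.511, 0.757, 0.495, 0.728 and 0.594 CPM in sham hearts. Infarcted and sham hearts stood clear of each other for Kcnd1, the third Kcnd pore, with log2 fold changes of 2.07 ± 0.16 in rHCI hearts (SE, adjusted p = 5.72e-07) and 2.14 ± 0.14 in PBS hearts (adjusted p = 2.23e-08). Kcnd1 was a member only with the help of infarcted libraries, so its lack of overlap and adjusted p are not independent support. Its relatives Kcnd2 and Kcnd3 fell in the same libraries. Kcnh1 and Kcnc2, like Kcnq3, entered through the infarcted groups alone. Kcnh1 was at 1.88 in rHCI and 1.94 in PBS hearts on the log2 scale. Kcnc2, known from fast-firing neurons, was at 0.50 in rHCI and 0.57 in PBS hearts on that scale. Kcnq5, another M current pore, did not pass (0.091 ± 0.21 in rHCI and 0.30 ± 0.20 in PBS hearts, adjusted p = 0.715 in rHCI and 0.186 in PBS hearts).

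Modifier pores do not conduct alone and alter the channels they join. Kcnv2 (ENSMUSG00000047298; GRCm38 chromosome 19, 27322588 to 27337179), a silent subunit best known from photoreceptors, had the largest fall of any channel gene. Kcnv2 had 3.94, 2.24, 2.75, 4.96 and 7.95 CPM in rHCI hearts, 2.82, 3.27, 2.58, 1.07 and 5.29 CPM in PBS hearts and 13.2, 12.2, 13.7, 13.2 and 13.9 CPM in sham hearts. Sham hearts lay in a narrow band above all infarcted hearts, and the infarcted hearts spread widely, from PBS 12 to rHCI 13. The log2 fold change was -1.59 ± 0.26 in rHCI hearts (SE, adjusted p = 2.16e-04) and -2.15 ± 0.27 in PBS hearts (adjusted p = 1.14e-05). The coefficient of variation was 51.8% in rHCI and 50.6% in PBS hearts, against 5.04% in sham hearts. Kcng2 fell less than Kcnk3 and Kcnip2, with -0.46 ± 0.074 in rHCI hearts (SE, adjusted p = 1.98e-04) and -0.58 ± 0.078 in PBS hearts (adjusted p = 1.80e-05). Kcng4, near the detection minimum, did not pass (adjusted p = 0.313 in rHCI and 0.0591 in PBS hearts).

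Two-pore-domain pores gave 3 rises, 1 fall and 1 gene that did not pass in each infarcted group, beside the all-gene shares above. Kcnk3 had 277, 219, 272, 305 and 345 CPM in rHCI hearts, 241, 284, 244, 196 and 302 CPM in PBS hearts and 468, 452, 450.2, 503 and 463 CPM in sham hearts. Every infarcted heart lay below every sham heart for Kcnk3 (ENSMUSG00000049265; GRCm38 chromosome 5, 30588170 to 30625271), the most abundant channel transcript, with log2 fold changes of -0.71 ± 0.099 in rHCI hearts (SE, adjusted p = 5.90e-05) and -0.89 ± 0.096 in PBS hearts (adjusted p = 2.55e-06). Kcnk13, a leak channel known from microglia, rose, with 1.84 ± 0.20 in rHCI hearts (SE, adjusted p = 9.18e-06) and 2.23 ± 0.19 in PBS hearts (adjusted p = 2.96e-07). Its values were 1.96, 3.29, 2.55, 2.22 and 2.20 CPM in rHCI hearts, 3.51, 3.10, 3.56, 3.64 and 2.32 CPM in PBS hearts and 0.740, 0.798, 0.457, 0.905 and 0.550 CPM in sham hearts. Macrophage and monocyte markers moved with it, and their part in this rise was not tested. Kcnk13 was a member only with the help of infarcted libraries. Kcnk2, a stretch-activated channel, rose by little (0.34 ± 0.11 in rHCI and 0.38 ± 0.13 in PBS hearts), as did Kcnk6 (0.37 ± 0.13 in rHCI and 0.35 ± 0.10 in PBS hearts), while Kcnk5 did not pass (0.27 ± 0.18 in rHCI and 0.20 ± 0.21 in PBS hearts). Libraries of Kcnk2 overlapped the sham libraries in each infarcted group, and those of Kcnk6 did so in rHCI hearts.

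Calcium- and sodium-activated pores gave 4 rises, 2 falls and 1 gene that did not pass in each infarcted group, beside the all-gene shares above. Kcnma1 encodes the large-conductance calcium-activated channel and Kcnn4 the intermediate one of immune cells and fibroblasts. Kcnma1 had 3.04, 3.70, 2.77, 3.27 and 1.88 CPM in rHCI hearts, 2.88, 3.59, 3.33, 4.04 and 2.50 CPM in PBS hearts and 0.148, 0.594, 0.533, 0.374 and 0.325 CPM in sham hearts. Kcnn4 had 3.28, 5.03, 4.66, 2.72 and 2.69 CPM in rHCI hearts, 3.92, 4.28, 4.78, 4.79 and 2.29 CPM in PBS hearts and 0.403, 0.675, 0.553, 0.630 and 0.594 CPM in sham hearts. All infarcted hearts lay above all sham hearts for both, and both were members only with the help of infarcted libraries. The log2 fold change of Kcnma1 was 2.95 ± 0.29 in rHCI hearts (SE, adjusted p = 3.89e-06) and 3.11 ± 0.26 in PBS hearts (adjusted p = 2.90e-07). For Kcnn4 it was 2.70 ± 0.22 in rHCI hearts (SE, adjusted p = 8.27e-07) and 2.82 ± 0.21 in PBS hearts (adjusted p = 1.10e-07). Fibroblast and macrophage markers moved with both, and their part in the rises was not tested.

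The small-conductance pores, which couple calcium to repolarization, split. Kcnn2 fell, with -0.81 ± 0.14 in rHCI hearts (SE, adjusted p = 3.52e-04) and -1.06 ± 0.092 in PBS hearts (adjusted p = 3.42e-07), and Kcnn1 fell, with -0.82 ± 0.082 in rHCI hearts (SE, adjusted p = 4.11e-06) and -0.76 ± 0.082 in PBS hearts (adjusted p = 2.59e-06). Kcnn3 rose, with 0.76 ± 0.12 in rHCI hearts (SE, adjusted p = 1.86e-04) and 0.60 ± 0.12 in PBS hearts (adjusted p = 5.94e-04). Kcnn2 had 15.2, 9.62, 11.4, 16.0002 and 17.7 CPM in rHCI hearts, 12.4, 13.2, 11.1, 9.53 and 13.002 CPM in PBS hearts and 27.4, 24.8, 22.1, 22.9 and 26.0 CPM in sham hearts. Kcnn3 had 7.16, 7.49, 6.49, 7.37 and 6.02 CPM in rHCI hearts, 5.24, 5.89, 6.26, 6.96 and 6.80 CPM in PBS hearts and 3.17, 5.14, 4.496, 3.92 and 3.88 CPM in sham hearts. Neither gene overlapped between infarcted and sham hearts, in opposite directions. Kcnt2, a sodium-activated pore, rose (1.06 ± 0.11 in rHCI and 1.14 ± 0.090 in PBS hearts), and its relative Kcnt1 did not pass (0.14 ± 0.19 in rHCI and -0.24 ± 0.21 in PBS hearts).

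Of the auxiliary subunits, 4 passed as higher, 1 fell and 4 did not pass in each infarcted group, beside the all-gene shares above. Kcne1l and Kcne3 among the higher genes entered through the infarcted groups alone. Kcne4 had 8.81, 14.5, 11.8, 8.80 and 8.86 CPM in rHCI hearts, 11.2, 10.5, 11.8, 15.2 and 8.69 CPM in PBS hearts and 2.96, 2.50, 2.93, 2.91 and 2.83 CPM in sham hearts. Infarcted and sham hearts were far apart for Kcne4, which inhibits Kcnq1 channels, with log2 fold changes of 1.91 ± 0.15 in rHCI hearts (SE, adjusted p = 4.85e-07) and 2.02 ± 0.13 in PBS hearts (adjusted p = 2.53e-08). Kcnq1 and Kcne4 were opposite in direction. Kcnab2, a cytoplasmic beta subunit of Kcna channels, rose, with 1.64 ± 0.13 in rHCI hearts (SE, adjusted p = 6.88e-07) and 1.89 ± 0.15 in PBS hearts (adjusted p = 1.54e-07). Kcnab2 had 5.53, 6.35, 5.79, 4.84 and 5.85 CPM in rHCI hearts, 6.61, 6.48, 7.85, 7.74 and 5.07 CPM in PBS hearts and 1.99, 2.17, 1.94, 1.73 and 1.33 CPM in sham hearts. Again no infarcted heart overlapped the sham hearts. Kcnab1 did not pass (0.15 ± 0.15 in rHCI and 0.27 ± 0.14 in PBS hearts). Kcne1l was at 1.52 in rHCI and 1.60 in PBS hearts, and Kcne3 at 0.94 in rHCI and 1.26 in PBS hearts with overlap between groups. Kcnmb1, the smooth muscle partner of Kcnma1, did not pass (0.020 ± 0.15 in rHCI and 0.15 ± 0.12 in PBS hearts) although Kcnma1 rose, nor did Kcnip3 (0.022 ± 0.12 in rHCI and 0.096 ± 0.12 in PBS hearts).

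**Figure D3:**
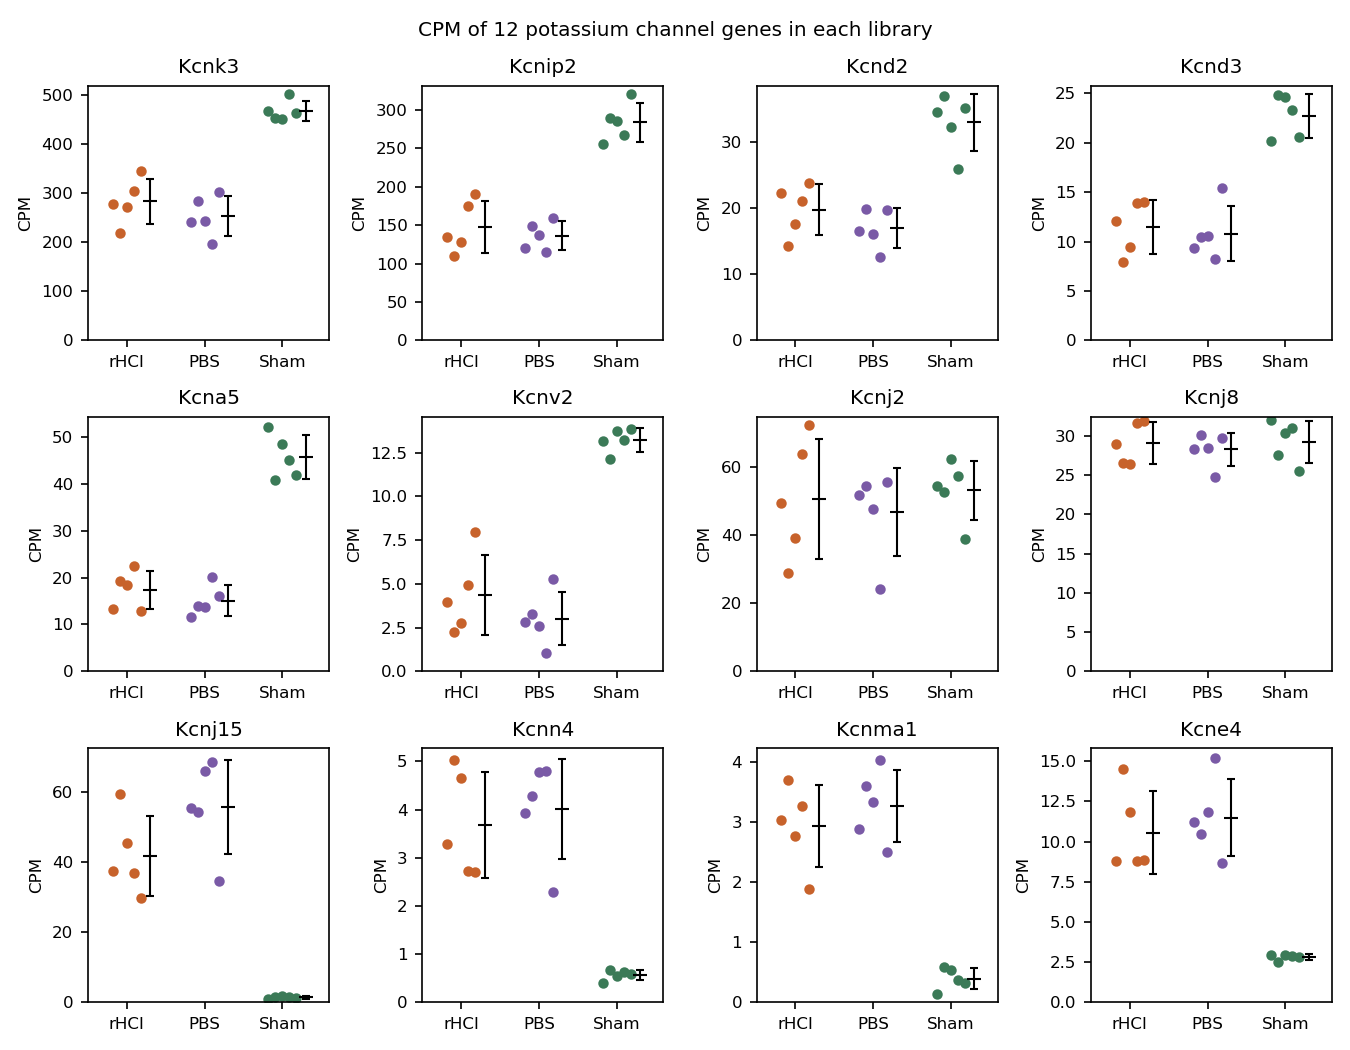
CPM (y axis, from 0) of 12 potassium channel genes, 1 point per library, with rHCI, PBS and Sham from left to right and the mean and SD of 5 libraries beside each group. In the first 6 panels no infarcted heart reaches the sham hearts, Kcnj2 and Kcnj8 overlap, and in the last 4 panels every infarcted heart is above every sham heart.

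Ratios of 2 subunit genes within a library do not depend on scaling, and pairs were compared between all groups by exact permutation tests (two-sided, smallest p possible 0.00794 with 5 against 5, Benjamini-Hochberg over 24 tests). Kcnj8 relative to Kcnj11 was higher by 0.77 in rHCI and by 0.88 in PBS than in sham hearts on the log2 scale (exact p = 0.00794, adjusted 0.0381 each). Kcnj12 relative to Kcnj2 was lower in rHCI hearts, at -0.64 (exact p = 0.00794, adjusted 0.0381), and at -0.79 did not pass in PBS hearts (exact p = 0.0159, adjusted 0.0635). For these 3 differences that passed, all 5 infarcted libraries lay beyond all 5 sham libraries. With 1 library left out, where the smallest possible p is 0.0159, each missed the threshold (adjusted p of 0.0635 or more), as it did in the 4 libraries per group with the shared number (adjusted p = 0.114), where the smallest possible p is 0.0286. None of the ratios given here passed between rHCI and PBS hearts.

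Within the transient outward current the ratios did not pass in any comparison. The log2 ratio of Kcnip2 to Kcnd2 reads was 2.89 ± 0.18 in rHCI, 3.01 ± 0.13 in PBS and 3.11 ± 0.19 in sham hearts (SD, n = 5 each), and that of Kcnip2 to Kcnd3 was 3.69 ± 0.13 in rHCI, 3.68 ± 0.19 in PBS and 3.64 ± 0.19 in sham hearts. Kcnd2 to Kcnd3 was at 0.80 ± 0.12 in rHCI, 0.66 ± 0.22 in PBS and 0.53 ± 0.26 in sham hearts. Kcnj5 to Kcnj3 was at 0.094 ± 0.17 in rHCI, 0.20 ± 0.12 in PBS and 0.037 ± 0.17 in sham hearts, and Kcnq1 to Kcnh2 at -0.66 ± 0.29 in rHCI, -0.53 ± 0.33 in PBS and -0.80 ± 0.15 in sham hearts. Adjusted p over these 5 pairs against sham ran from 0.245 to 0.787, and a p that misses the threshold does not show equal ratios.

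**Figure D4:**
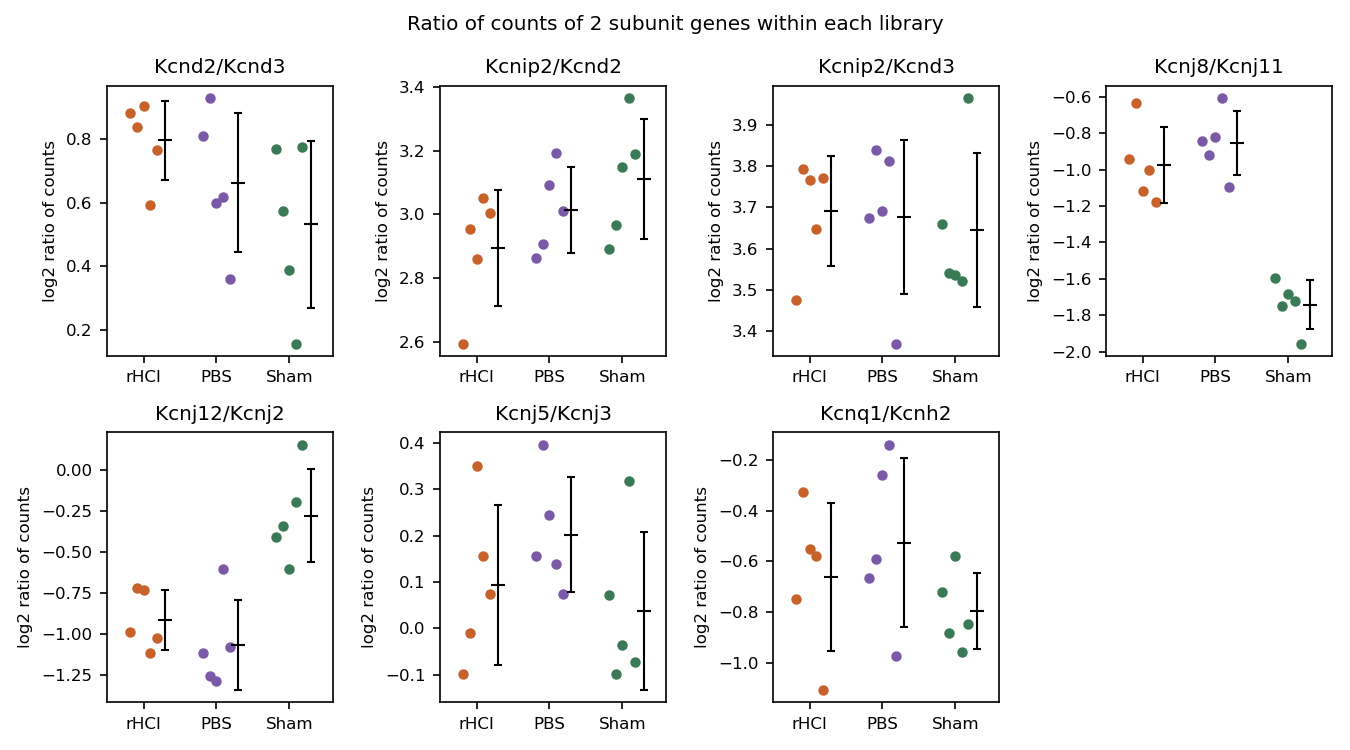
Log2 ratio of the read counts of 2 potassium channel genes within each library (y axis, which does not start at 0), 1 point per library with mean and SD beside each group of 5. In the panel Kcnj8/Kcnj11 all infarcted hearts lie above all sham hearts, and the 3 panels of Kcnd2, Kcnd3 and Kcnip2 overlap.

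Counted per read of the 15 cardiomyocyte markers instead of per library, a separate quantity, 31 channel genes were higher and 5 lower in rHCI than in sham hearts (79.1% of all genes higher, 1.57% lower), while PBS hearts had 35 higher and 9 lower than sham hearts (84.5% higher, 1.75% lower). Of all genes, 80.7% passed in rHCI and 86.2% in PBS hearts on this scale. The median log2 difference of all genes on this scale was 0.64 in rHCI and 0.79 in PBS hearts. The 5 lower in rHCI hearts, Kcnv2, Kcna5, Kcnd3, Kcnip2 and Kcna7, were also lower in PBS hearts, where Kcna1, Kcnj3, Kcnn2 and Kcnj12 joined them. With 1 library left out, 4 to 6 genes were lower in rHCI and 6 to 9 in PBS hearts, and in PBS hearts Kcna7 and Kcnj12 each lost the call in 6 of 10 such fits. Differences on this scale were -1.03 in rHCI hearts and -1.41 in PBS hearts for Kcnv2, and -0.74 in rHCI hearts and -0.78 in PBS hearts for Kcna5. For Kcnd3 they were -0.38 in rHCI hearts and -0.31 in PBS hearts, and for Kcnip2 -0.34 in rHCI hearts and -0.28 in PBS hearts. Kcnk3 (-0.10 in rHCI hearts and -0.11 in PBS hearts) and Kcnj11 (-0.14 in rHCI hearts and -0.14 in PBS hearts) did not pass on this scale. Some genes that fell per library passed as higher here in PBS hearts, among them Kcnq1 (0.28), Kcng2 (0.21) and Kcna4 (0.45). These values lay below the median of all genes, and Kcnq1 lost the call without Ttn and Myh6 among the markers. Without Ttn and Myh6 among the markers, 9 genes were lower in rHCI and 13 in PBS hearts.

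The infarcted hearts differed among themselves in a shared pattern. Of the 20 genes lower than in sham hearts, 17 had their lowest rHCI value in rHCI 3 and 17 their lowest PBS value in PBS 12. The highest value fell in rHCI 13 for 15 of them and in PBS 14 for 13. Cardiomyocyte markers took the smallest share of counts in the same libraries, at 6.51% in rHCI 3 and 6.21% in PBS 12, and the largest of their groups in rHCI 13 at 8.64% and PBS 14 at 8.13%. The part of these shares in the pattern was not tested. The ranks were not taken over all genes, so the pattern may not be particular to channel genes. Of the 19 genes higher than in sham hearts, 14 had their highest rHCI value in rHCI 3 and 13 their highest PBS value in PBS 12. In sham hearts no library held more than 7 of the 20 lowest or highest values. Kcna5 went against this pattern, since its lowest rHCI value was in rHCI 13 and its highest PBS value in PBS 12. Leaving out rHCI 3 gave 16 genes higher and 19 lower in rHCI hearts against sham, and leaving out PBS 12 gave 19 higher and 19 lower in PBS hearts against sham. The median coefficient of variation of the 20 lower genes was 23.1% in rHCI and 17.05% in PBS hearts, against 9.13% in sham hearts. For the 19 higher genes it was 21.2% in rHCI and 17.8% in PBS hearts, against 23.5% in sham hearts.

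Setting rHCI against PBS hearts addresses the effect of the hydrogel in infarcted ventricle. None of the 52 channel genes passed, with adjusted p from 0.871 to 0.981, and neither did any of the 16383 genes tested (0.00% called by edgeR). At an unadjusted p under 0.05 there were 3 channel genes and 579 genes in all, and DESeq2 called 6 genes, none of them a channel gene. No channel gene had rHCI and PBS libraries without overlap, beside 0.501% of all genes (0.201% higher, 0.299% lower). The 95% interval of a log2 fold change reached 0.36 to either side at the median over the 52 genes and 0.89 at the widest, for Kcnv2.

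Kcna1 had the smallest unadjusted p, with a log2 fold change of 0.70 (95% interval 0.17 to 1.24) and an adjusted p of 0.871. The values given above put rHCI 1 highest and rHCI 13 at the level of PBS hearts. Kcnk13 was at -0.40 (95% interval -0.76 to -0.038), Kcna3 at -0.39 (95% interval -0.77 to -0.0044) and Kcnab2 at -0.25 (95% interval -0.52 to 0.015). Kcnj15 was at -0.42 (95% interval -0.86 to 0.033) and Kcnt1 at 0.38 (95% interval -0.061 to 0.81). All of these had an adjusted p of 0.871. For the pores of the main ventricular currents the intervals were -0.11 to 0.55 for Kcnd2, -0.19 to 0.57 for Kcna5 and -0.46 to 0.69 for Kcnj2. Those of Kcnk3 (-0.12 to 0.45) and Kcnip2 (-0.20 to 0.44) also held 0.

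**Figure D5:**
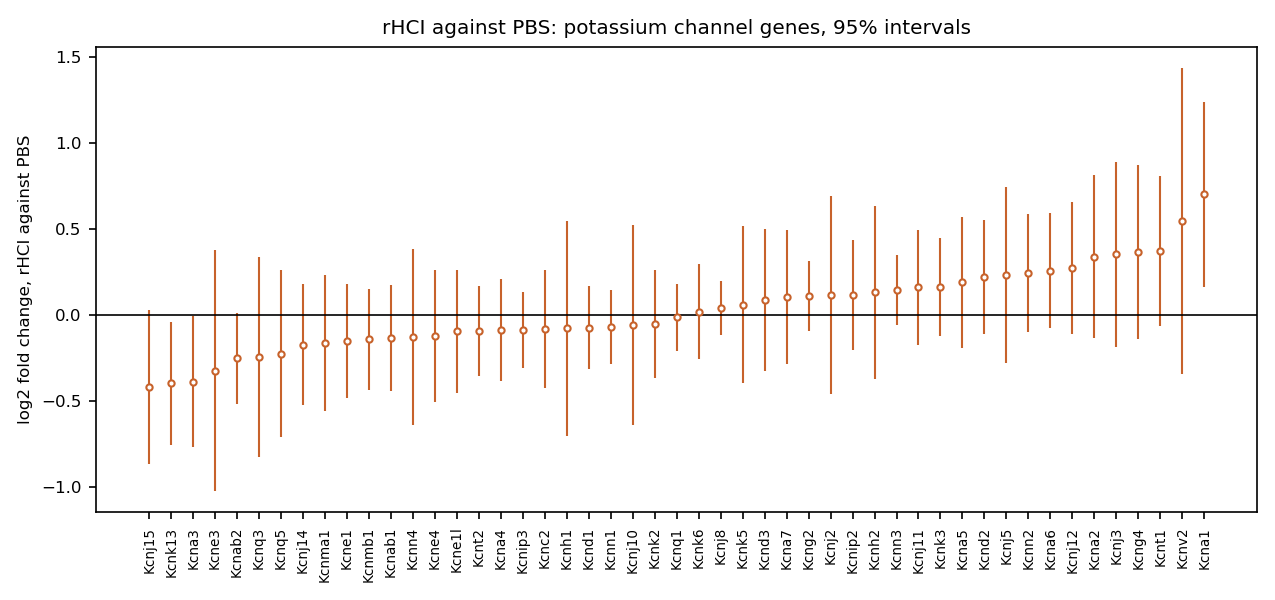
Log2 fold change of rHCI against PBS hearts (y axis) with 95% intervals for the potassium channel genes in order of their value. No gene passed after adjustment over all genes, and the intervals of 3 genes, Kcna1, Kcnk13 and Kcna3, leave out 0.

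Of 40 partner and regulator genes outside the naming pattern, 35 could be tested. Against sham hearts, 4 rose and 23 fell in rHCI and 5 rose and 24 fell in PBS hearts, with median log2 fold changes of -0.37 in rHCI and -0.46 in PBS hearts, and none passed between rHCI and PBS hearts. Of all genes tested, 34.1% were higher and 29.7% lower in rHCI, and 36.5% higher and 34.9% lower in PBS hearts. Klf15, a transcription factor that drives Kcnip2 in mouse heart, had the largest fall, with log2 fold changes of -1.61 ± 0.22 in rHCI and -1.76 ± 0.14 in PBS hearts (SE). Its level was 35.3 ± 13.3 CPM in rHCI, 32.1 ± 7.14 CPM in PBS and 109 ± 16.4 CPM in sham hearts (SD, n = 5 each). Abcc9, a sulfonylurea receptor that joins Kcnj8 and Kcnj11, fell, with -0.91 ± 0.13 in rHCI and -1.11 ± 0.11 in PBS hearts. Abcc8, the other receptor, was named for its role after its values were seen and fell (-0.55 ± 0.090 in rHCI and -0.74 ± 0.086 in PBS hearts). Lrrc52, a gamma subunit of the Kcnma1 channel, fell (-1.16 ± 0.26 in rHCI and -1.37 ± 0.28 in PBS hearts), while Lrrc55, another gamma subunit, rose (0.69 ± 0.18 in rHCI and 0.79 ± 0.19 in PBS hearts) in the direction of Kcnma1. The actin cross-linker Flna, which binds Kcnd2, rose (0.89 ± 0.11 in rHCI and 0.998 ± 0.071 in PBS hearts).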

How the data were processed

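The authors deposited one table of whole-number read counts per gene for all 15 libraries, with no normalization. Stranded mRNA libraries were made, per the labels' protocols. Per the submitters' processing notes, Trimmomatic, STAR, Cufflinks and edgeR were used with GRCm38/mm10. The sources used here do not give their roles or versions, nor the read counter and its strand setting. Hence the counts of genes with antisense exon overlap (Kcnab1, Kcne3, Kcnma1, Kcnn1, Kcnn2, Kcnt2, Kcnj15, Kcnj3, Kcnk2, Kcnk3, Kcng2, Kcna6, Kcnd3, Kcnq1 and Kcnq5) are uncertain.

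All other values were computed here in R 4.3.3. Each pair of groups (10 libraries) was fitted with edgeR 4.0.16 (filterByExpr, TMM factors, quasi-likelihood test, two-sided, Benjamini-Hochberg over all genes tested, threshold 0.05), a procedure tested on simulated data. Few genes changed in the simulation, so it does not bear on scaling where most genes differ, as against sham hearts. Levels are CPM with TMM factors from all 15 libraries, and per-length levels divide them by the exon union of the annotation (GRCm38). The minimum of 0.5 CPM used library totals, and TMM factors gave the same 52 genes. DESeq2 1.42.0, RLE factors, library totals, no filter, 1 fit of all libraries, the shared-number libraries and leaving out each library were alternatives. Depth was 32978702 to 103356830 counts per library, and intervals cover the spread between libraries. No pair of libraries of one group agreed within sampling noise.

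Members and gene lists were chosen with earlier results of these data known. Full statistics went to passing members without overlap, up to the 12 largest rises and 12 largest falls, and to 15 members of the main ventricular currents. Between rHCI and PBS hearts they went to the 6 members with the smallest unadjusted p, and among partners to the 3 largest rises and 3 largest falls. Other members are given more briefly, and some genes are not reported here.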

Additional observations from a re-analysis of the deposited data

Results flagged for a closer look

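In 4 of 99 groups of 5 libraries examined among named genes, 1 library lay far from the other 4, and chance flags about 1 in 20 such groups. Kcnj2 was at 24.4 CPM in PBS 12, against 47.8 to 55.7 CPM in the other PBS hearts. Kcnt1 was at 0.267 CPM in PBS 12, against 0.459 to 0.487 CPM in the other PBS hearts. Kcnj12 was at 50.2 CPM in Sham 19, against 41.0 to 43.4 CPM in the other sham hearts. Kcne4 was at 2.50 CPM in Sham 17, against 2.83 to 2.96 CPM in the other sham hearts.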

How the results depend on the processing

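The counts of channel genes that passed stayed within 1.5 times their main value under all alternatives run, at 16 to 24 higher and 16 to 20 lower for rHCI against sham hearts and 19 to 25 higher and 19 to 21 lower for PBS against sham hearts. Without 1 library, rHCI against sham hearts gave 16 to 19 higher and 19 to 20 lower. Between rHCI and PBS hearts, DESeq2 called 6 genes and without 1 library edgeR called 0 to 3 (3 without rHCI 13), per library and per cardiomyocyte marker alike, and no channel gene. Without Ttn and Myh6, 9 channel genes were lower per cardiomyocyte marker in rHCI than in sham hearts, against 5 with them, and Kcna7 lost that call without 1 library in 2 of 10 fits. Library-total scaling reversed Kcnj2 (0.15 in rHCI, 0.081 in PBS) and Kcnj8 (0.22 in both) against sham hearts. For rHCI against sham hearts, Kcnj8 was 0.022 in shared-number libraries, and without 1 library Kcnj8 ranged over -0.050 to 0.033 and Kcnj2 over -0.23 to 0.087.

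Ratios that passed missed the threshold in shared-number libraries, where fewer libraries raise the smallest possible p: Kcnj8 to Kcnj11 at 0.76 in rHCI and 0.90 in PBS, and Kcnj12 to Kcnj2 at -0.60 in rHCI hearts. Without 1 library these ranged over 0.68 to 0.82, 0.82 to 0.94 and -0.72 to -0.53 in the same order. Some ratios that did not pass changed sign. In shared-number libraries of PBS against sham hearts, Kcnd2 to Kcnd3 was -0.030 and Kcnip2 to Kcnd3 -0.039. Without 1 library, Kcnip2 to Kcnd3 ranged over -0.0079 to 0.11 for PBS against sham and -0.063 to 0.067 for rHCI against PBS, and Kcnj5 to Kcnj3 over -0.0072 to 0.13 for rHCI against sham hearts. The cause was not tested.

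No paired analysis was possible because the groups share no replicate numbers. The number in the library descriptions, whose meaning the labels do not give, was shared by 4 libraries per group, and the others are single libraries that give no value of their own. Genes near 0.5 CPM rest on few reads, which limits them.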
